A study of Mus musculus with 16 samples.

Results

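The Wnt genes described here are the secreted Wnt ligands, the Frizzled receptors, and 17 co-receptors, R-spondins, Lgr receptors and intracellular effectors that were listed by name. The rule matches gene symbols among the protein-coding genes of the count table and uses no measured value, although the list was drawn up with earlier results of these data known, and 42 of the 25054 genes in the table matched. These are 15 ligands, 10 Frizzled receptors, 5 co-receptors or alternative receptors, 3 R-spondins with 2 Lgr receptors, β-catenin (*Ctnnb1*) with 2 Axins, and 4 TCF/LEF transcription factors. RNA was sequenced from 16 mouse osteosarcomas, bone-forming tumors of the osteoblast lineage, to compare tumors with and without floxed *Arid1a*, a subunit gene of the SWI/SNF chromatin remodeling complex. The 8 KO tumors were OsxCreERT2+/-;p53fl/fl;Rb1fl/fl;Arid1afl/fl, and the 8 WT tumors were OsxCreERT2+/-;p53fl/fl;Rb1fl/fl. Both groups thus carried floxed *Trp53* and *Rb1* and a Cre that tamoxifen activates in cells expressing *Osterix*, so WT refers to *Arid1a* alone and neither group is normal bone. All mice were given 400 μg of tamoxifen per gram at 1 month of age and were older than 6 months. The KO tumors came from 8 mice, whereas the WT tumors came from 4 mice. N42 gave 4 of them, N43 gave 2, and the mice N215 and N25 gave 1 each.

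Wnt proteins are lipid-modified ligands that bind a Frizzled receptor together with a partner. When the partner is *Lrp5* or *Lrp6*, the Axin-based complex that destroys β-catenin is held back, and β-catenin enters the nucleus and activates target genes with TCF/LEF factors. *Axin2* and *Lef1* are well-known targets of this route, and *Axin2* in turn restrains it. Other Wnts, of which *Wnt5a* is the best known, act through *Ror1*, *Ror2* or *Ryk* on cell shape and movement without β-catenin. In bone, Wnt signals promote the formation of osteoblasts, and loss and gain of *LRP5* function are known to lower and to raise bone mass.

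TCF/LEF factors bind a core of 6 letters, CTTTGA, which reads TCAAAG on the other strand. The promoters of the pathway's targets *Axin2* and *Lef1*, and of *Fzd1*, the gene with the smallest p-value below, are shown here to see whether this core is present. Each sequence is the 250 bases before a RefSeq transcription start in GRCm38.p6, written 5′ to 3′ on the strand of the gene, with the core in capitals. The *Axin2* sequence is chr11:108920099-108920348 on the plus strand, that of *Lef1* is chr3:131110047-131110296 on the plus strand and is the first of its 4 starts, and that of *Fzd1* is chr5:4758217-4758466 on the minus strand.
Axin2: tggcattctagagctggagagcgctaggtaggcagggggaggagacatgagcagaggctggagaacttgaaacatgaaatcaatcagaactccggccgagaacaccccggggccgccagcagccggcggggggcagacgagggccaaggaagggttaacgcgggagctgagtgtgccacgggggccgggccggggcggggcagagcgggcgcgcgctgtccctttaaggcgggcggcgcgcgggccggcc
Lef1: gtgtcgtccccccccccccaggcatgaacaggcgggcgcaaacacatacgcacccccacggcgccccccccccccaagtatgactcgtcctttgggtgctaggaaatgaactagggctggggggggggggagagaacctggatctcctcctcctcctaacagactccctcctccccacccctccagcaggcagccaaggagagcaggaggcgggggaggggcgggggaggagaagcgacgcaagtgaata
Fzd1: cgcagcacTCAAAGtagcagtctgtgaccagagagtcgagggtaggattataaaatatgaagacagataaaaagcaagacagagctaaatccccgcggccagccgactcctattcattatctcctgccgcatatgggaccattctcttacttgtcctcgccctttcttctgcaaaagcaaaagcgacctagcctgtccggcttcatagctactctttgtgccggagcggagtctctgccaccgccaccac
The core occurs 1 time in the *Fzd1* sequence, beginning 242 bases before the start, and in neither of the other sequences. Another of the 4 *Lef1* starts has it. Promoter sequences were found for 29 of the 42 genes, and 5 of these had the core on either strand (*Wnt5b*, *Wnt11*, *Fzd1*, *Ror1* and *Lef1*), which is 17.2% against 15.8% of the 27025 genes with a sequence. A match describes letters in this window and is not evidence of binding.

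The depth was lower in KO, with 1109487 to 15059640 counts on genes per tumor against 7806160 to 16962329 in WT. The floor of 3 counts in a library corresponds to 6.69 CPM (the count relative to the normalized library size) in Massa and 4.03 CPM in Grilka, but to at most 0.839 CPM in the other KO tumors and 0.34 CPM in WT. *Arid1a*, counted over the whole gene, lay between 107 and 270 CPM in KO and between 125 and 236 CPM in WT, so the count does not separate the groups. The summed level of 13 osteoblast markers ran from 855 to 63992 CPM in KO and from 3540 to 94490 CPM in WT, and *Sp7*, the gene that encodes Osterix, was at 0 in Massa and at 0.166 CPM in Prince. Markers of other tissues were high in some tumors. Of the 12 skeletal muscle markers, the sum was 165242 CPM in Oregon and 113331 CPM in Montana, and at most 9751 CPM elsewhere. The 9 salivary gland markers summed to 116782 CPM in Prince and to at most 524 CPM elsewhere, and the 8 lung markers to 11340 CPM in Massa and 28694 CPM in the N25 tumor, which is labeled as lung, and to at most 77.5 CPM elsewhere. The 6 liver markers summed to 1205 CPM in Zelda and to at most 24.5 CPM elsewhere. The label of the N25 tumor does not say whether it is a metastasis, and the study describes none in WT mice, so it is uncertain what this library represents. Without it 8 Wnt genes were called, in place of the 7 given next. In that fit 903 of 15457 genes were called in all, against 618 of 15413 with it. As these are bulk samples, fewer cells of a type and less RNA per cell cannot be told apart.

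Between KO and WT, 7 of the 42 Wnt genes changed, and all 7 were lower in KO. These were the ligands *Wnt2b*, *Wnt5a*, *Wnt5b* and *Wnt7b*, the receptor *Fzd1*, the alternative receptor *Ror1*, and *Axin2*. Their log2 fold changes ran from −4.35 for *Wnt7b* to −1.33 for *Axin2*. In each of the 7 genes, all 8 KO tumors lay below the WT median, as they also did in *Wnt6*, *Wnt10a*, *Fzd2* and *Lgr5*, which were not called. The 7 were selected as lower in these tumors, and the share of all genes with this pattern was not taken. For *Wnt2b* the WT median of 3.75 CPM is under the floors of Massa and Grilka, so these 2 tumors cannot show it. The same holds for *Wnt10a* and *Lgr5*, with WT medians of 3.95 and 1.45 CPM, and in Massa for *Wnt6*, with 4.24 CPM. *Ctnnb1*, *Lrp5*, *Lrp6*, *Ryk* and *Axin1*, the abundant parts of the pathway that most cells share, did not pass the test. The test was edgeR's two-sided quasi-likelihood test with Benjamini-Hochberg adjustment over the 15413 genes with enough counts for its filter, and a gene was called at an adjusted p-value under 0.05. Among all genes tested, 4.01% were called, 2.15% lower and 1.86% higher in KO. Of the 42 Wnt genes, 34 passed the filter, which a gene can do through the group in which it is high, and 8 did not (*Wnt2*, *Wnt3a*, *Wnt7a*, *Wnt9b*, *Wnt16*, *Fzd10*, *Lgr5* and *Rspo1*). Of the 34, 28 had a negative and 6 a positive log2 fold change, and the median was −0.70. Over all genes tested the median was 0.10, and 44.1% were negative. These 7 calls treat the WT tumors of 1 mouse as separate. None of the 7 was called when the counts were summed per mouse (edgeR adjusted p from 0.215 to 0.598), where 0.0625% of all genes were called. All 7 had a negative log2 fold change and an unadjusted p under 0.05 in that fit. They had been selected in the same tumors, and the share of all genes at that level was not taken there.

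The number of Wnt genes called depended on the setting, and each count stands here beside the share of all genes called. It was 12 of 41 with DESeq2, which called 12.5% of all genes, and the added genes were *Wnt6*, *Wnt10a*, *Fzd2*, *Fzd9* and *Lgr5*. It was 0 with limma-voom and the mouse as a random effect, where 0.11% of all genes were called and 6 Wnt genes had an unadjusted p under 0.05. Without the 4 tumors of N42 it was 0 as well, with 0.0498% of all genes called and 11 Wnt genes at an unadjusted p under 0.05. The share of all genes at that unadjusted level was not taken in these settings. In the main edgeR fit it was 23%, against 12 of the 34 Wnt genes tested. RLE size factors gave 7 (4.07% of all genes), upper-quartile scaling 7 (3.89%) and no filter on low counts 6 (2.71%). Without Massa and Grilka, the shallowest libraries, it was 6 (5.36%). Without Montana, Oregon and Prince, the tumors with muscle or salivary markers, only *Fzd1* and *Ror1* were called (2.64%). Without the N215 and N25 tumors, a setting chosen after the data were seen, it was 8 (9.46%).

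**Figure D1:**
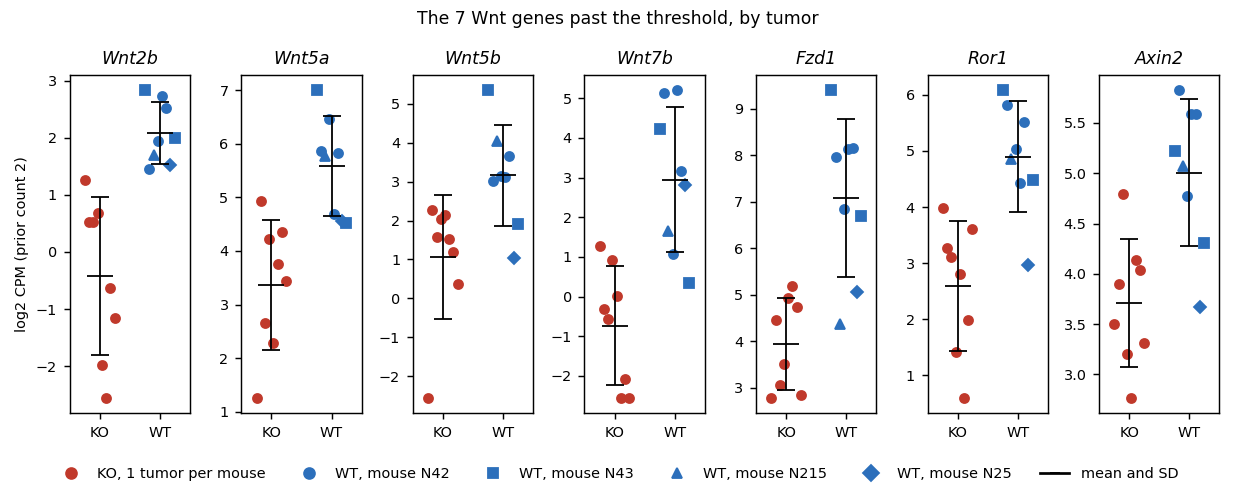
Log2 CPM (prior count 2) of the 7 Wnt genes past the threshold, with 1 point per tumor, KO in red and WT in blue with a symbol for each WT mouse, and the mean and SD of each group in black. Only *Wnt2b* has groups that do not overlap, and the N215 and N25 tumors are the lowest WT points for *Fzd1*.

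Among the ligands, *Wnt7b* had the largest fold change of the 7 genes called. *Wnt7b*, a ligand that acts through β-catenin and promotes bone formation when produced by osteoblasts, lies on chromosome 15 of GRCm38 from 85535437 to 85582473. It ranged from 0 to 2.23 CPM in KO (median 0.572) and from 1.1 to 36.8 CPM in WT (median 7.85). The KO values rest on at most 18 counts, and 6 of the 8 WT tumors were above every KO tumor. KO tumors were lower by a log2 fold change of −4.35 ± 0.90 (standard error), at an adjusted p of 0.0146 in edgeR. The WT tumors were far apart, from 1.93 to 36.8 CPM among the 4 tumors of N42 and from 1.1 to 18.4 CPM between the 2 tumors of N43.

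*Wnt2b*, on chromosome 3 from 104945272 to 104961921, was the Wnt gene whose groups did not overlap, as in 0.415% of all genes tested. It ranged from 0 to 2.23 CPM in KO (median 0.871) and from 2.58 to 6.98 CPM in WT (median 3.75). The highest KO value is that of Massa and rests on 1 count, and Grilka had 0 counts. The floors of these libraries, 6.69 and 4.03 CPM, are above the lowest WT value. In edgeR the difference was −2.44 on the log2 scale, its standard error 0.53 and its adjusted p 0.0178. Between tumors of 1 mouse, *Wnt2b* varied by 2.51-fold in N42 and by 1.83-fold in N43.

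*Wnt5a*, on chromosome 14 from 28504750 to 28527448, encodes the ligand of *Ror1* and *Ror2*. It ranged from 2.23 to 30.2 CPM in KO (median 12) and from 22.7 to 128 CPM in WT (median 55.3), and 7 KO tumors lay below every WT tumor. The exception was Medusa. This amounted to a log2 fold change of −2.06 with a standard error of 0.48, and the edgeR adjusted p was 0.0253. Its close relative *Wnt5b*, on chromosome 6 from 119432531 to 119544347, ranged from 0 to 4.65 CPM in KO (median 2.75) and from 1.87 to 40.8 CPM in WT (median 8.64). The groups overlapped, since the N25 tumor and the pelvis tumor of N43 lay within the KO range. KO tumors were lower by a log2 fold change of −2.10 ± 0.57 (standard error), at an adjusted p of 0.046 in edgeR. *Wnt5b* overlaps *Fbxl14* on the opposite strand, which has 4432 counts against its 1843, and the strand of the counts is not given in the sources used here. Leaving out 1 tumor at a time, the adjusted p of *Wnt5a* went to at most 0.0592 and passed the threshold again in 12 of 16 fits, and *Wnt5b* passed it in 4 of 16 with an adjusted p of up to 0.112 without the spine tumor of N43.

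The neighboring ligand genes *Wnt6* and *Wnt10a* on chromosome 1 did not pass the test. *Wnt10a* ranged from 0 to 2.96 CPM in KO (median 0.415) and from 0.516 to 53.8 CPM in WT (median 3.95), and its log2 fold change of −3.53 (standard error 1.01) had an edgeR adjusted p of 0.0553. *Wnt6* ranged from 0 to 2.96 CPM in KO (median 1.48) and from 0.129 to 28 CPM in WT (median 4.24), and its log2 fold change of −2.68 (standard error 0.93) had an edgeR adjusted p of 0.0989. Both were highest in WT tumors of different mice, *Wnt10a* at 53.8 CPM in the spine tumor of N43 and 14.5 CPM in N215, and *Wnt6* at 28 and 26.2 CPM in the same 2 tumors. In the N43 pelvis tumor both were at 0.652 CPM. Without the spine tumor of N43 the log2 fold change of *Wnt10a* was −2.43, with an edgeR adjusted p of 0.14, and without Ohio it was −4.20, with an adjusted p of 0.0461.

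*Wnt4*, a ligand needed in kidney and gland development, had the highest median level per kilobase of exon of the 15 ligands over the 16 tumors. It ranged from 0 to 252 CPM in KO (median 22.6) and from 5.81 to 74 CPM in WT (median 30.9), and its log2 fold change of 0.64 (standard error 0.78) had an edgeR adjusted p of 0.667. The value of 252 CPM is that of Prince, the tumor with the salivary gland markers and with 1543 CPM of the 10 epithelial markers, and the next KO tumor, Montana, had 45.9 CPM. Without Prince the log2 fold change was −0.70. The part of gland or epithelial RNA in the *Wnt4* level was not tested.

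Of the ligands that did not pass the filter, *Wnt2*, *Wnt3a* and *Wnt7a* stood out in 1 tumor. In the N25 lung tumor they were at 10.1, 4.45 and 5.16 CPM, from 156, 69 and 80 counts, whereas in the other 7 WT tumors *Wnt3a* and *Wnt7a* had 0 counts and *Wnt2* had at most 5. Massa, the other tumor with lung markers, had 3, 2 and 2 counts of these genes, at or under the floor of its library. Zelda had 12 counts of *Wnt2*, 3 of *Wnt3a* and 10 of *Wnt7a*. *Wnt2* is known as a ligand of lung mesenchyme. The remaining ligands *Wnt9a*, *Wnt10b* and *Wnt11* were measured in both groups and were not called (edgeR adjusted p = 0.608, 0.743 and 0.293). *Wnt9b* and *Wnt16* were at most 2.65 and 5.9 CPM in any tumor.

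**Figure D2:**
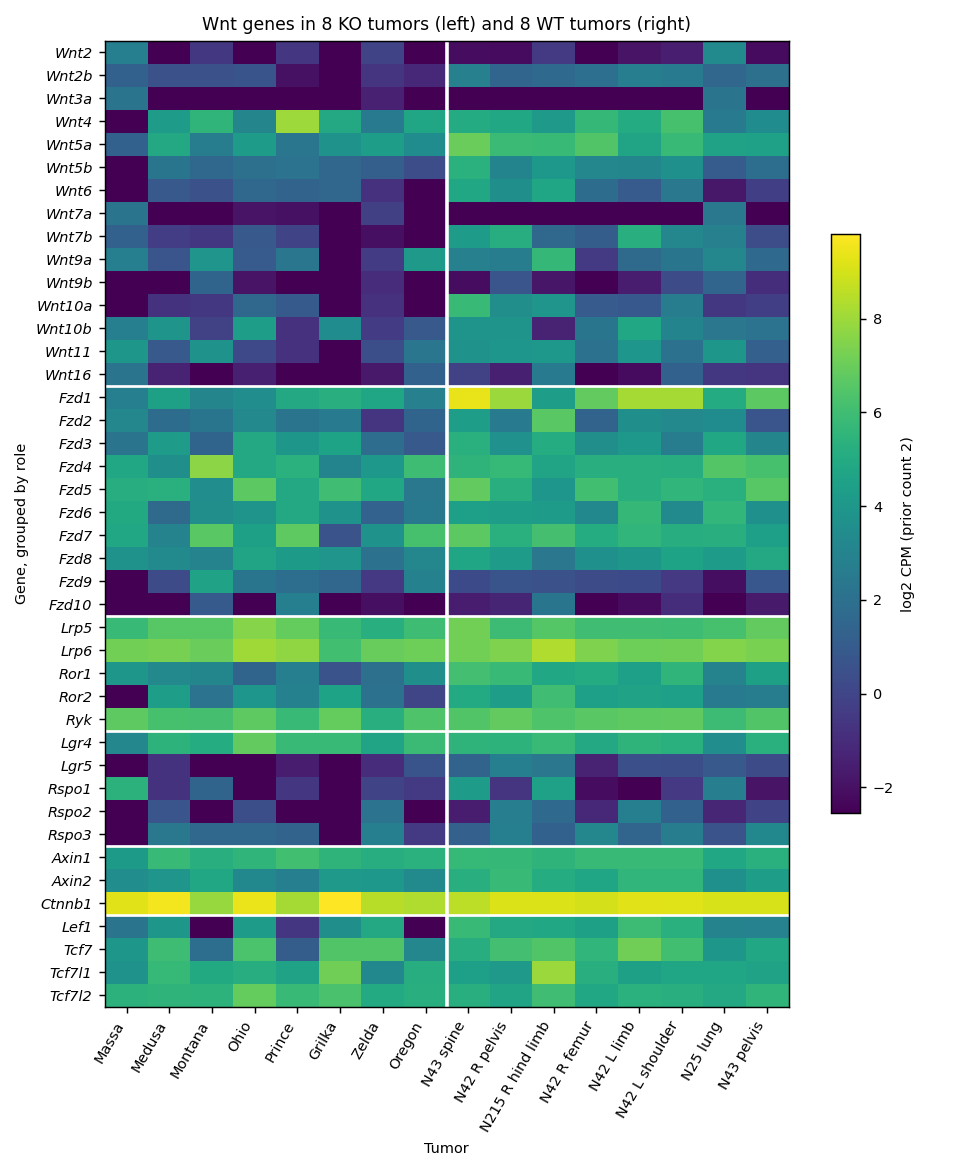
Log2 CPM (prior count 2, color) of the 42 Wnt genes (rows, grouped by role) in the 8 KO tumors (left) and the 8 WT tumors (right). *Ctnnb1*, with 238 to 894 CPM in KO, is the brightest row, and *Fzd1* is brighter in 6 of 8 WT tumors than in any KO tumor.

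*Fzd1* separated most of the WT tumors from KO and had the smallest p-value of the Wnt genes. It is a Frizzled receptor without introns in this annotation, on chromosome 5 from 4753839 to 4758035. In KO it ranged from 6.69 to 36.3 CPM with a median of 16.5, and in WT from 20.4 to 679 CPM with a median of 182. The 6 tumors of N42 and N43 lay between 103 and 679 CPM and were above every KO tumor, whereas the N215 and N25 tumors, at 20.4 and 32.9 CPM, lay within the KO range. In edgeR the difference was −3.58 on the log2 scale, its standard error 0.65 and its adjusted p 0.00945. It was −3.46 without the 4 tumors of N42, where the adjusted p was 0.251, and −3.11 with counts summed per mouse. With limma-voom and the mouse as a random effect it was −2.37, at an adjusted p of 0.498.

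The other Frizzled genes did not pass the test. *Fzd7* had the highest median level per kilobase of the 10 receptors over the 16 tumors, at 7.88 CPM per kilobase against 7.5 for *Fzd1*. In WT alone the median of *Fzd1*, 43.4 CPM per kilobase, was above the 8.35 of *Fzd7*. It ranged from 1.34 to 108 CPM in KO (median 25.3) and from 21.4 to 105 CPM in WT (median 37.8), with a log2 fold change of −0.12 (95% interval from −1.36 to 1.13, edgeR adjusted p = 0.934). The KO tumors Prince, Montana and Oregon had 108, 101 and 73.3 CPM of it, and the other 5 had at most 29 CPM. Without these 3 tumors the log2 fold change was −1.79, with an edgeR adjusted p of 0.0773. *Fzd4*, the receptor of retinal vessel growth, was likewise highest in Montana with 200 CPM and in the N25 tumor with 90.6 CPM, and its log2 fold change was 0.01 (95% interval from −1.11 to 1.14). These intervals leave room for a change of more than 2-fold in either direction.

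*Fzd9* was the Frizzled gene with the smallest p-value among those with a higher mean in KO. It ranged from 0 to 23.7 CPM in KO (median 3.17) and from 0.0645 to 1.55 CPM in WT (median 1.04), and its log2 fold change of 2.52 (standard error 0.73) had an edgeR adjusted p of 0.0574. The highest values were 23.7 CPM in Montana and 7.27 CPM in Oregon, the 2 tumors with the skeletal muscle markers, followed by 4.58 CPM in Ohio and 3.65 CPM in Prince. Without these 2 tumors and Prince the log2 fold change was 0.96, and the part of muscle RNA in its level was not tested. *Fzd2* reached 98.7 CPM in N215 against at most 20.3 CPM in the other 15 tumors (adjusted p = 0.121 in edgeR). *Fzd3*, *Fzd5*, *Fzd6* and *Fzd8* had adjusted p-values from 0.371 to 0.568, and *Fzd10* exceeded 3 CPM only in Prince and N215.

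The make-up of the Frizzled receptors differed between tumors. Levels were divided by exon length, and each gene's share of the summed CPM per kilobase was taken within the tumor, as a description without a test. *Fzd1* was first in 6 of 8 WT tumors, all from the mice N42 and N43, with 38.7% to 71.5% of the sum. In the other WT mice *Fzd2* was first in N215 with 43% and *Fzd4* in N25 with 25.1%. In KO, *Fzd1* was first in Zelda alone, with 35.6%. *Fzd5* was first in Medusa, Ohio and Grilka (29.1%, 36.5% and 31.9%), *Fzd7* in Prince and Oregon (42% and 47.2%), *Fzd4* in Montana (41.5%) and *Fzd6* in Massa (22.4%), where the whole class has 71 counts. The summed level ran from 17.7 to 71.6 CPM per kilobase in KO (median 31.8) and from 53.8 to 226 in WT (median 77.8).

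The same description of the ligands gave sums from 6.6 to 66.2 CPM per kilobase in KO (median 15.8) and from 11.4 to 89.2 in WT (median 40.5). *Wnt4* was the first ligand in 5 of 8 KO tumors and held 90.8% of the sum in Prince. The whole class has 25 counts in Massa and 44 in Grilka, so the ranks and sums of these tumors are uncertain. In WT no ligand was first in more than 2 tumors. *Wnt4* and *Wnt5a* were each first in 2, and *Wnt10a*, *Wnt9a*, *Wnt10b* and *Wnt2* in 1 each, *Wnt2* being that of the lung tumor.

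**Figure D3:**
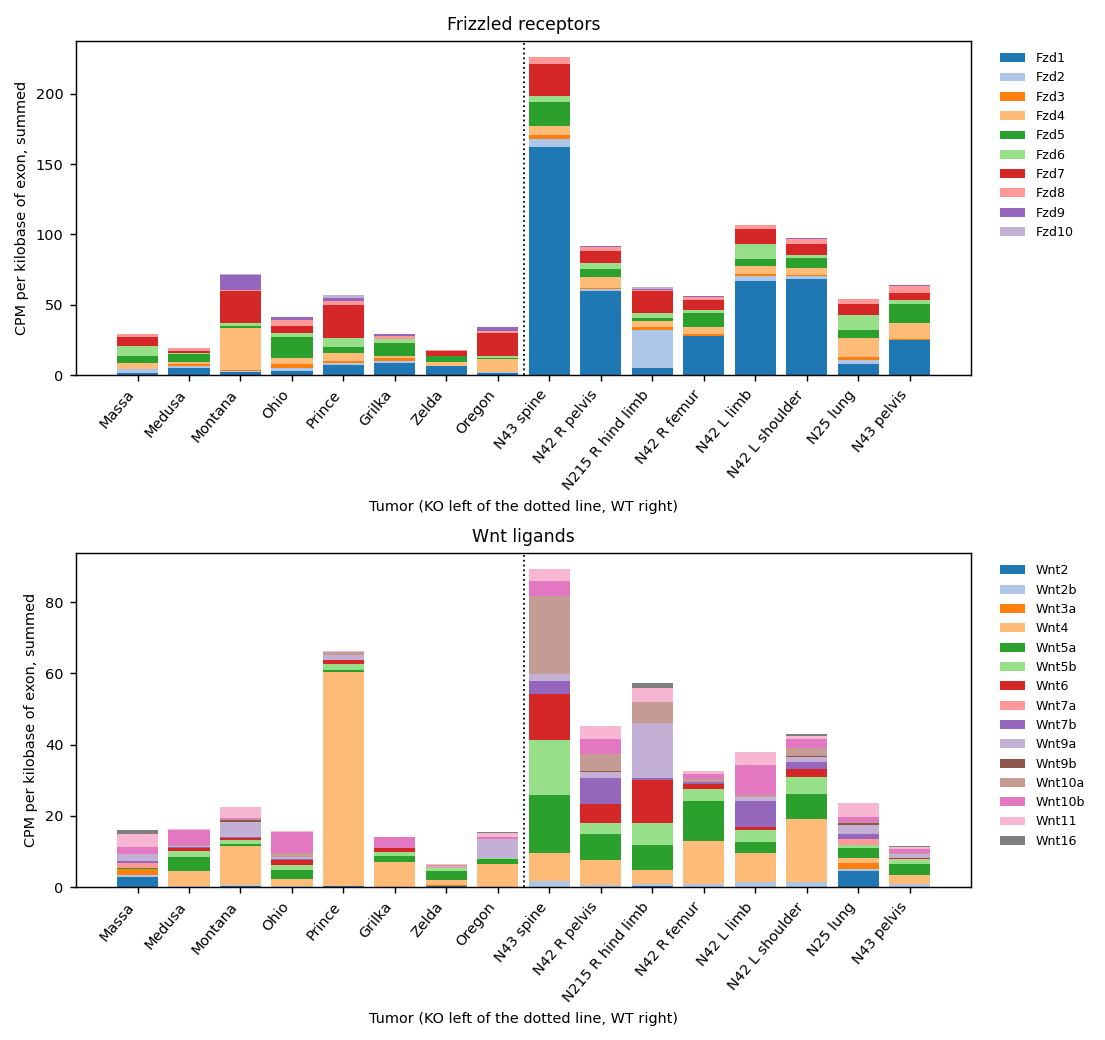
CPM per kilobase of exon, stacked by gene, for the 10 Frizzled receptors (top) and the 15 Wnt ligands (bottom) in each tumor. *Fzd1* makes up 38.7% to 71.5% of the Frizzled sum in the 6 tumors of N42 and N43, and *Wnt4* 90.8% of the ligand sum in Prince.

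Of the co-receptors and alternative receptors, *Ror1* was lower in KO. *Ror1*, a receptor tyrosine kinase family member that binds Wnt5a and is abundant in embryonic tissue and several cancers, lies on chromosome 4 from 100095791 to 100444765. It ranged from 1.34 to 15.6 CPM in KO (median 7.61) and from 7.62 to 67.9 CPM in WT (median 30.7). The N25 tumor had the lowest WT value, and the other 7 WT tumors were above every KO tumor. This amounted to a log2 fold change of −2.28 with a standard error of 0.48, and the edgeR adjusted p was 0.0154. Its relative *Ror2* ranged from 0 to 24.2 CPM in KO and from 5.74 to 65.1 CPM in WT and was not called (log2 fold change −1.38, edgeR adjusted p = 0.21).

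The canonical co-receptors *Lrp5* and *Lrp6*, and the alternative receptor *Ryk*, were measured more precisely and did not pass the test. *Lrp6* ranged from 65.8 to 264 CPM in KO and from 134 to 323 CPM in WT, and its log2 fold change of −0.22 had a 95% interval from −0.78 to 0.35. For *Lrp5*, with 37.6 to 190 CPM in KO and 60.4 to 142 CPM in WT, it was 0.09 with an interval from −0.57 to 0.75. *Ryk* had a log2 fold change of −0.19 with an interval from −0.69 to 0.30. All 3 intervals end short of the log2 fold change of *Ror1*.

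R-spondins amplify Wnt signals by binding Lgr receptors, which spares Frizzled proteins from removal. Of this group *Lgr4*, *Rspo2* and *Rspo3* were tested in edgeR and none was called, also at an unadjusted p under 0.05, while *Lgr5* and *Rspo1* were not tested there and DESeq2 called *Lgr5*. *Lgr4* ranged from 8.92 to 113 CPM in KO and from 11.1 to 54.9 CPM in WT (log2 fold change 0.37, edgeR adjusted p = 0.6). *Lgr5*, a marker of stem cells in several epithelia, did not pass the filter. It had at most 5 counts in any KO tumor, or 0 to 1.4 CPM, and 4 to 136 counts in WT, or 0.227 to 6.61 CPM. *Rspo2* and *Rspo3* were at most 6.77 and 9.13 CPM in any tumor and had edgeR adjusted p-values of 0.493 and 0.455. *Rspo1* was at 42.4 CPM in Massa from 19 counts, at 22.5 CPM in N215, 18.7 CPM in the spine tumor of N43 and 6.52 CPM in N25, and at most 2.55 CPM in the other 12 tumors.

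*Axin2* was lower in KO, whereas *Ctnnb1* and *Axin1* were not called. *Axin2*, on chromosome 11 from 108920349 to 108950783, ranged from 6.64 to 27.5 CPM in KO (median 13) and from 12.5 to 56.6 CPM in WT (median 35.3). The N25 tumor, the N43 pelvis tumor and the right femur tumor of N42, at 12.5, 19.6 and 27.1 CPM, lay within the KO range, whose highest value was that of Montana. KO tumors were lower by a log2 fold change of −1.33 ± 0.35 (standard error), at an adjusted p of 0.0408 in edgeR. This call was close to the threshold, and *Axin2* passed it in 6 of the 16 fits that left out 1 tumor, with an adjusted p of up to 0.0928 without the right pelvis tumor of N42. *Ctnnb1* ranged from 238 to 894 CPM in KO (median 483) and from 383 to 600 CPM in WT (median 552), with a log2 fold change of −0.04 (95% interval from −0.67 to 0.59, edgeR adjusted p = 0.951). The direction of this small difference changed with the scaling. Its lowest values were 238 CPM in Montana, 278 CPM in Prince and 322 CPM in Oregon. For *Axin1* the log2 fold change was −0.15 (95% interval from −0.65 to 0.35).

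The TCF/LEF factors were not called, but *Lef1* and *Tcf7* varied widely among the KO tumors. *Lef1*, the family member most tied to active Wnt signaling, was at 0 counts in Montana and Oregon and at 0.498 CPM in Prince, and reached 29.7 CPM in Zelda (KO median 8.27). In WT it ranged from 7.47 to 60.8 CPM (median 29.2). Its log2 fold change was −1.60 (95% interval from −3.41 to 0.21, edgeR adjusted p = 0.274). *Tcf7*, which is also abundant in T cells, was at 1.99 CPM in Prince, 3.57 CPM in Montana and 8.67 CPM in Oregon and between 62.5 and 86.9 CPM in Medusa, Ohio, Grilka and Zelda, against 15.6 to 138 CPM in WT (log2 fold change −0.49, edgeR adjusted p = 0.71). The 7 lymphoid markers summed to 1092 CPM in Zelda, to 13.4 to 70.3 CPM in Medusa, Ohio and Grilka, and to 58.2 to 269 CPM in WT. These sums are mostly *Ptprc*, a gene of all leukocytes, which was at 845 CPM in Zelda and at 61.5, 59.3 and 13.4 CPM in Medusa, Ohio and Grilka. The T cell gene *Cd3e* was at 16.7 CPM in Zelda and at most 5.29 CPM in any other tumor. The part of lymphoid RNA in the *Tcf7* level was not tested. *Tcf7l1*, largely a repressor, reached 245 CPM in N215 and 141 CPM in Grilka against at most 52.6 CPM elsewhere, and *Tcf7l2* had a log2 fold change of 0.55 (95% interval from −0.05 to 1.15).

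**Figure D4:**
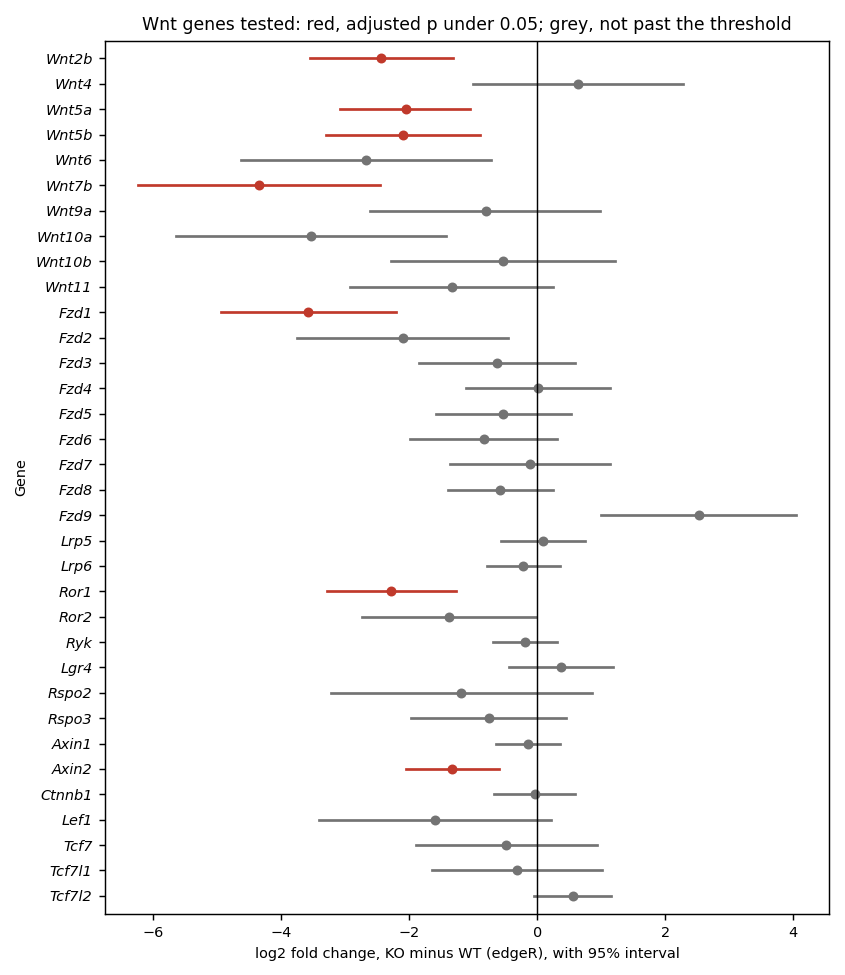
Log2 fold change, KO minus WT, with its 95% interval for the 34 Wnt genes that passed the filter on low counts, in edgeR. Red marks the 7 genes with an adjusted p under 0.05, all to the left of 0, and the shortest intervals are those of abundant genes such as *Ryk* and *Axin1*.

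A list of 74 other genes of the pathway, which are not counted among the 42, gives the context. Of the 65 that passed the filter, 5 were called, 4 lower and 1 higher in KO, which is 7.69% against 4.01% of all genes tested, and their median log2 fold change was −0.07. *Notum*, which encodes an extracellular enzyme that removes the lipid from Wnt proteins and is itself a target of β-catenin, ranged from 0 to 2.29 CPM in KO (median 0.783) and from 3.01 to 66.5 CPM in WT (median 32.3). Its groups did not overlap, as in 0.415% of all genes tested. The gap lies under the floors of Massa and Grilka, 6.69 and 4.03 CPM, so these 2 tumors cannot show it. The log2 fold change of −4.59 had an edgeR adjusted p of 0.00476. Likewise lower were *Dkk3*, a secreted protein of the Dickkopf family, with a log2 fold change of −3.13, *Apcdd1*, a membrane inhibitor of Wnt signaling, with −3.55, and *Ptk7*, a pseudokinase of planar cell polarity, with −1.80 (edgeR adjusted p = 7.57e-05, 0.0159 and 0.0371). *Amer1*, a scaffold of the destruction complex, rose from 24.9 ± 9.42 CPM (SD, n = 8) in WT to 50.6 ± 17.1 CPM (SD, n = 8) in KO, a log2 fold change of 1.01 at an edgeR adjusted p of 0.0474. Called genes thus included ligands, receptors and inhibitors. Each gene was listed once, *Ptk7* with the membrane regulators, *Notum* with the secretion genes and *Axin2* among the 42, so the next counts leave them out. In edgeR, no gene of the 12 nuclear cofactors, 5 feedback inhibitors and 11 planar polarity genes listed and tested was called. Of these, 2, 2 and 4 had an unadjusted p under 0.05, a level that 23% of all genes tested reached. DESeq2 called *Tle5*, *Nkd2*, *Celsr3*, *Prickle1* and *Scrib* among them. *Dkk3* was the only one of the 5 that was called in each of the 26 alternatives run.

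Markers of the cell types in the tumors were also compared, and the 7 genes were set beside them. Of the 13 osteoblast markers, 10 had a negative log2 fold change, with a median of −1.27, but none was called. Of the 11 macrophage markers 8 were called in the main edgeR fit, all lower, where 2.15% of all genes tested were called lower. That fit treats the WT tumors of 1 mouse as separate. The sum of the 11 ran from 365 to 2143 CPM in KO and from 750 to 2985 CPM in WT. The 2143 CPM is that of Massa, where *Lyz2* alone was at 1909 CPM, and the next KO tumor, Zelda, had 1133 CPM. In the N25 tumor *Lyz2* was at 1377 CPM of 1838 CPM. These are the 2 tumors with the lung markers. Medusa, Ohio and Grilka had osteoblast sums of 42205, 27798 and 63992 CPM, between the 27676 and 94490 CPM of the 6 WT tumors of N42 and N43. In these 3 KO tumors *Fzd1* was at 21.8, 11.2 and 36.3 CPM against 103 to 679 CPM in those 6. *Ror1* was at 9.5, 2.48 and 1.34 CPM against 21.3 to 67.9 CPM, and *Axin2* at 14.8, 9.06 and 17.5 CPM against 19.6 to 56.6 CPM. The values of *Fzd1*, *Ror1* and *Axin2* just given describe 3 KO tumors and 2 WT mice, and the *Ror1* value of Grilka lies under the floor of its library. The part of osteoblast content in the 7 genes was not tested. *Wnt5a*, *Wnt5b* and *Wnt7b* overlapped between these tumors. The lowest osteoblast sums in WT were 3540 CPM in N25 and 5633 CPM in N215, the tumors with the lowest *Fzd1*. The part of macrophage RNA in the 7 genes was not tested.

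The WT values rest on few mice. A two-sided exact permutation test of the mean log2 CPM per mouse, over all 495 ways of choosing 8 of 12 mice, has 0.00202 as its smallest possible p-value. This exact test gave, unadjusted, p = 0.00606 for *Wnt7b*, 0.0101 for *Wnt2b*, 0.0121 for *Wnt5a*, 0.0202 for *Ror1*, 0.0222 for *Fzd1*, 0.0384 for *Axin2* and 0.0626 for *Wnt5b*. The same test was run for 15 Wnt genes in all. Of these, 10 were chosen by their edgeR p-value in the same tumors, so small values here are not independent support. Among genes not called, the exact test gave p = 0.0182 for *Wnt10a* and 0.168 to 0.865 for *Wnt6*, *Fzd9*, *Wnt4*, *Fzd7* and *Tcf7*. For *Lef1* the exact test gave p = 0.119 and for *Ctnnb1* p = 0.644. Between tumors of the same mouse, *Fzd1* differed by 6.56-fold in N43 and by 2.49-fold among the 4 tumors of N42, and *Wnt10a* by 82.5-fold in N43. The body sites of the KO tumors are not given in the labels, so site and group cannot be told apart.

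**Figure D5:**
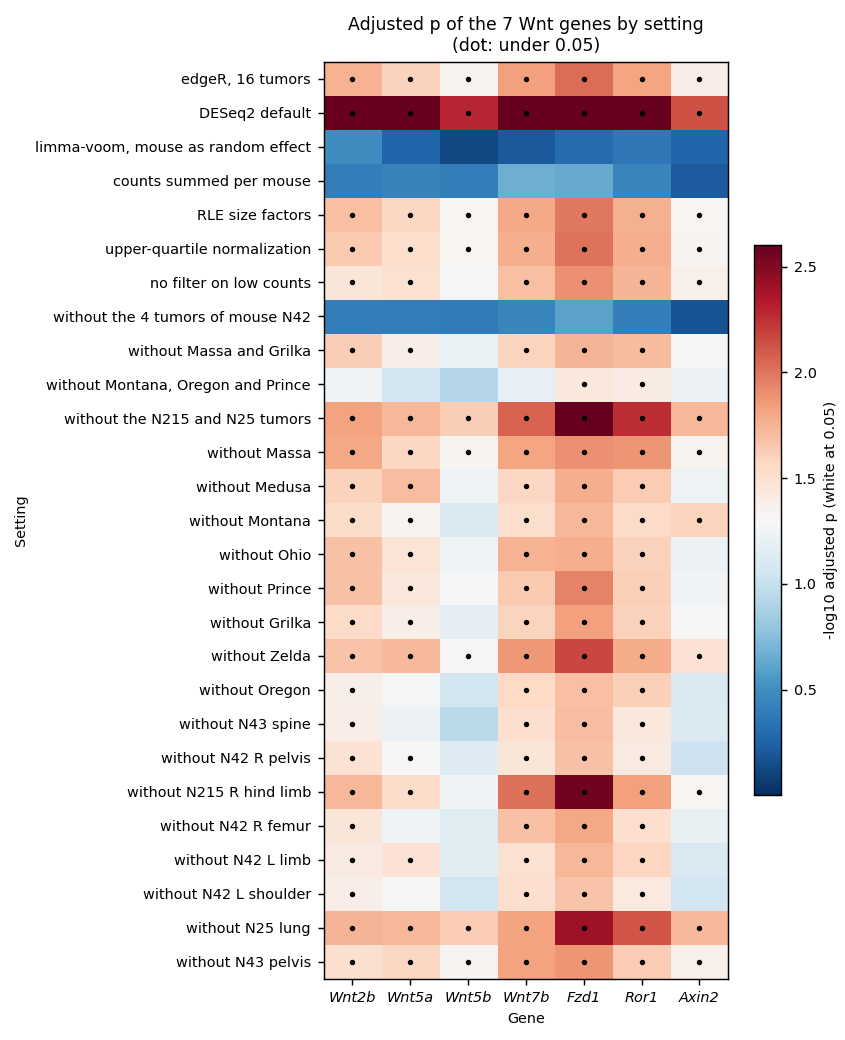
Adjusted p (−log10, color, white at 0.05) of the 7 Wnt genes past the threshold (columns) under the main test and the 26 alternatives (rows), with a dot where it is under 0.05. *Fzd1* and *Ror1* are under 0.05 in 23 of 26 alternatives, and none of the 7 genes is in the rows that account for the mouse or leave out N42.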

How the data were processed

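Per the labels and the paper's methods, ribosomal RNA was removed, and the authors aligned the reads with Novoalign 2.08.01 to mm10 and Ensembl transcript models, allowing many alignments per read and keeping the best. The deposited values are raw counts per gene, made with USeq before DESeq2 1.26.0. Here edgeR 4.0.16 in R 4.3.3 was used with TMM normalization, filterByExpr (minimum count 10, minimum total 15), glmQLFit and glmQLFTest without covariates, on 15413 of 25054 genes. CPM are counts divided by TMM-normalized library sizes, and log2 CPM has a prior count of 2. The floor of 3 counts covers counting error only. Levels per kilobase use exon lengths from GENCODE vM21 (GRCm38), which is later than the authors' models. Promoters come from RefSeq. DESeq2 1.42.0, limma 3.58.1 (voom, mouse as random effect) and other settings were alternatives. The edgeR, DESeq2 and limma fits were tested on simulated data in which every tumor was drawn independently. That test cannot check the calls where tumors share a mouse, whose correlation in limma-voom was 0.762. The main test counts each WT tumor as separate, although 6 of the 8 share a mouse with another.

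The genes described in full were those past the threshold, filled up to 10 by p-value, the ligand and Frizzled gene most abundant per kilobase, and *Axin2*, *Lef1*, *Tcf7* and *Ctnnb1*. Others are given by ranges, and those named beside them for a high value in 1 tumor were chosen after their values were seen. The Wnt genes, the other lists and the tests were chosen with earlier results of these data known. No batch is given in the labels.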

Additional observations from a re-analysis of the deposited data

Results flagged for a closer look

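In each group of 8 tumors, the highest and the lowest log2 CPM of each of the 34 Wnt genes tested were compared with the rest by Dixon's gap over range at its 95% critical value. Chance flags about 1 in 20 groups, and 8 values were flagged in 68 groups. That rate assumes independent tumors, whereas 6 of the 8 WT tumors come from N42 and N43, and 5 of the 6 WT values flagged are those of N215 or N25. In KO, *Wnt5b* was at 0 CPM in Massa, where 0 counts were seen in the shallowest library and the next tumor had 1.12 CPM, and *Fzd2* was at 0.475 CPM in Zelda against 2.52 CPM in the next. In WT, N215 was the lowest for *Wnt10b*, with 0.227 CPM from 2 counts, and the highest for *Lrp6* with 323 CPM and for *Tcf7l1* with 245 CPM, where the next tumors had 185 and 37.1 CPM. The N25 lung tumor was the lowest for *Lgr4*, with 11.1 CPM, and for *Fzd9*, with 0.0645 CPM from 1 count. The spine tumor of N43 was the lowest WT tumor for *Ctnnb1*, with 383 CPM against 523 CPM in the next.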

How the results depend on the processing

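No paired analysis was possible because KO and WT tumors came from separate mice. The number of Wnt genes called was 7 and became 12 with DESeq2 (11 of them lower in KO, 12.5% of all genes called), 0 with limma-voom and the mouse as a random effect, 0 with counts summed per mouse, 0 without the 4 tumors of N42 and 2 (*Fzd1* and *Ror1*) without Montana, Oregon and Prince. At an unadjusted p under 0.05 the counts behind the 0s were 6, 12 and 11, of 34, 36 and 36 Wnt genes tested. The share of all genes at that level was not taken for these fits. In the main fit it was 23%, against 12 of 34 Wnt genes. Leaving out 1 tumor gave 4 to 8, with 4 without the spine tumor of N43, the right femur tumor or the left shoulder tumor of N42. In these 3 fits 296, 280 and 252 genes were called in all, against 618 in the main fit. Over the fits without 1 tumor that total ran from 252 to 1348. All 7 genes had a negative log2 fold change in each of the 26 alternatives, though with limma-voom it shrank to −2.37 for *Fzd1*, −3.44 for *Wnt7b* and −1.42 for *Wnt5b*. Of the other pathway genes, 5 were called (4.01% of all genes) and 19 with DESeq2 (12.5%). The number was 1 each with limma-voom (0.11% of all genes), per mouse (0.0625%) and without N42 (0.0498%). It was 8 without Massa and Grilka (5.36%) and 10 without N215 and N25 (9.46%), the latter chosen after seeing the data. Without 1 tumor it was 3 to 10. The direction turned for *Wnt4* (−1.38 without Montana, Oregon and Prince, −0.70 without Prince, up to 0.94 without 1 other tumor), *Fzd7* (0.12 without Massa and Grilka, and 0.01 to 0.14 without 1 tumor in 5 fits, with a range of −0.45 to 0.14), *Tcf7* (0.11 without N42, 0.12 without Montana, Oregon and Prince) and *Ctnnb1* (0.00 with DESeq2, 0.01 per mouse, 0.01 with RLE, 0.02 with upper-quartile scaling, 0.08 without N42, 0.29 without Montana, Oregon and Prince, 0.01 without N215 and N25, and 0.01 to 0.05 without 1 tumor in 5 fits, with a range of −0.21 to 0.05). The cause of these changes was not tested. Leaving out tumors left fewer samples, and in Massa and Grilka genes under 6.69 and 4.03 CPM rest on fewer than 3 counts.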
